A study of Mus musculus with 6 samples.

Results

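The contractile genes described here were 9 genes of the smooth muscle and myofibroblast actin cytoskeleton, chosen by name: Acta2, Actg2, Myh11, Myl9, Tpm1, Tpm2, Cald1, Cnn1 and Tagln. Every probe that the array design assigned to these symbols was taken, which gave 17 of the 41174 probes that were not controls. Acta2 had 4 probes, Tpm1 had 3, Tpm2, Cald1 and Tagln had 2 each, and the other 4 genes had 1 each. Of the 17 probes, 13 were designed to a RefSeq transcript and 4 to a cDNA clone.

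The RNA came from primary fibroblasts of E15 mouse embryos, either wild type or homozygous for Wrn Δhel, which removes part of the helicase of the mouse counterpart of the Werner syndrome protein without a frameshift. Treated cells received 0.5 mM H2O2 for 1 h and were harvested after 24 h in fresh medium, and untreated cells received no H2O2. On 2 arrays treated wild type RNA (Cy5) was hybridized against untreated wild type RNA (Cy3), on 2 arrays treated mutant RNA (Cy5) was hybridized against untreated mutant RNA (Cy3), and on 2 arrays the untreated genotypes were set against each other. All mutant samples, treated or not, carried the deletion, and no comparison had a dye swap. The labels call the arrays of a comparison biological replicates. The p-values rest on a spread pooled over the arrays of all comparisons and drawn toward that of all probes. Where a value is given from 1 array, its p-value and SE hold no spread between arrays of that comparison. In whole cultures, fewer contractile cells and less RNA per cell cannot be told apart.

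Contractile fibroblasts, or myofibroblasts, assemble thick stress fibres from smooth muscle actin and myosin, and they close wounds and stiffen scars. Phosphorylation of the regulatory myosin light chain starts contraction, while tropomyosin, caldesmon and calponin sit on the actin filament and govern its access to myosin. Most of these genes are induced by TGF-beta and by serum response factor with its myocardin-related partners, which sense the pool of free actin and act through CArG boxes in promoters.

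In wild type cells treated with H2O2, 14 of the 17 member probes read below 0 on both arrays and none read above 0 on both, against 36.5% and 37.3% of all probes. In treated mutant cells 11 read below 0 on both arrays and 2 above, against 33.5% and 35.3% of all probes. The Acta2 probe A_52_P644232, not well above background on any array, was among these 14 and among these 2. The 17 probes belonged to 9 genes, so probes of the same gene were not independent. With only the brightest probe of each gene, all but Myh11 and Cnn1 read below 0 on both wild type arrays. In mutant cells Acta2, Actg2, Myl9, Tpm2 and Cnn1 did so, and Tagln read above 0 on both. The median log2 ratio over the 17 probes was -0.48 in wild type and -0.76 in mutant cells, while the median over all probes was 0.00 and 0.01. Between the untreated genotypes, with mutant RNA read as Cy5 (likely, not settled), Myl9 and a probe of Tpm2 were called higher in mutant cells. These were 2 of 15 member probes (10.2% of all probes). Probes of Tagln and Tpm1 were called lower, 3 of 15 (9.76% of all probes). The brighter probes of Tpm2 and Tagln were not called. With a term for dye 2 of 17 were higher (1.45% of all probes) and 0 of 17 lower (0.83% of all probes). Some members read low in Cy5 in all 3 comparisons, and in a fit with a term for dye the medians were -0.44 in wild type and -0.40 in mutant cells.

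Quality and direction bear on every value below. The extraction software had marked 28 of the 102 member spots as outliers, on 11 of the 17 probes, and it had marked 22.6% of all spots on replicate 2 of the wild type arrays, against 0.400% to 8.81% on the other 5. The designed fit left marked spots out, so that a member could lose 1 or both arrays of a comparison, and values with all spots are therefore given as well. Of the 17 probes, 14 were well above background in both dyes on every array. The Acta2 probe A_52_P644232 was not well above background on any array, so its values are no measurement of Acta2.

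On the untreated arrays, replicates 3 and 4, the sample labels place wild type RNA in Cy5, whereas the study's own gene list runs as if mutant RNA were in Cy5. The second reading is used here, as likely and not settled, and under the labels every ratio of that comparison turns its sign. Beside the list, its basis is a comparison across arrays within Cy3. All 7 member probes with a mean log2 ratio over 1 in size on the untreated arrays differed in the same direction between the untreated mutant and untreated wild type channels of the treatment arrays, and 14 of all 17 did, as did 94.1% of 5156 called probes over a mean log2 intensity of 6.

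**Figure D1:**
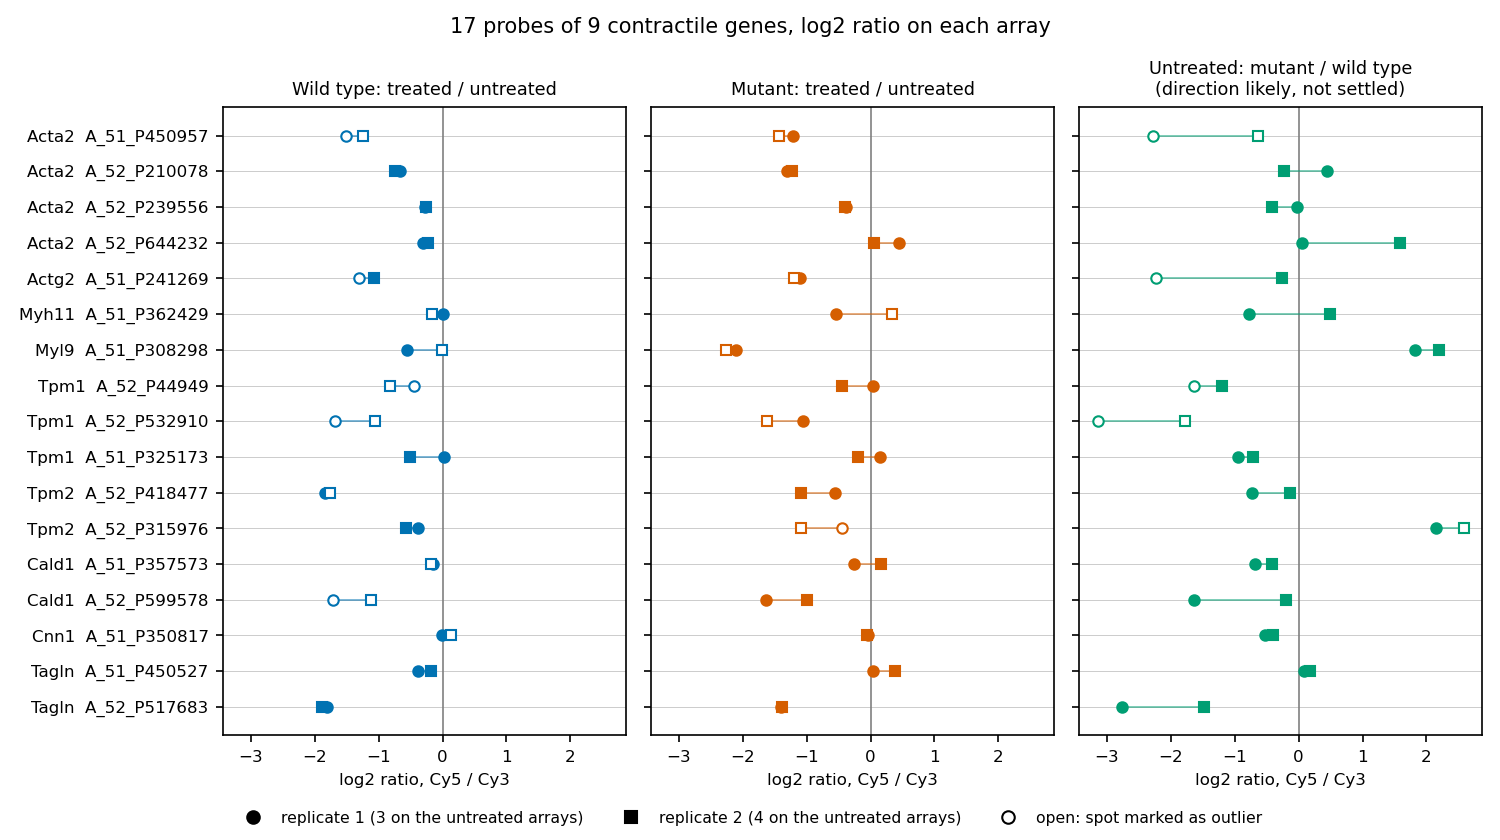
Log2 ratio of Cy5 over Cy3 (x axis) of each of the 17 probes (rows) on the 2 arrays of each comparison, all spots kept, with open symbols for spots marked as outliers. In wild type cells 14 probes lay below 0 on both arrays after H2O2, among them Acta2 A_52_P644232, not well above background on any array. On the untreated arrays Myl9 and the Tpm2 probe A_52_P315976 lay above 1 on both.

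Counts of calls were small in treated cells. A probe was called at a limma adjusted p under 0.05 over all probes. With marked spots left out, 1 of 13 member probes with a value was called in wild type cells (0.836% of all probes), the Tagln probe A_52_P517683. With all spots, 2 of 17 were called, both lower (1.22% of all probes), and 8 were lower at an unadjusted p under 0.05 (10.6% of all probes). In mutant cells 0 of 16 members were called by limma (0% of all probes), 9 of the 16 passed an unadjusted p under 0.05 (12% of all probes), and with all spots 10 of 17 were lower at that level (6.8% of all probes). Without replicate 3 or replicate 4 of the untreated arrays, the members called numbered 8 of 16 in mutant cells (11.1% of all probes) and 5 of 13 in wild type cells (23.5% of all probes). With the dye term, 2 of 17 were lower at an unadjusted p under 0.05 in wild type cells (2.85% of all probes) and 2 of 17 in mutant cells (4.37% of all probes).

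Between the untreated genotypes, with marked spots left out, 2 of 15 member probes were called higher in mutant cells (10.2% of all probes) and 3 of 15 lower (9.76% of all probes). With all spots 2 of 17 were higher (11.2% of all probes) and 5 of 17 were lower (11.2% of all probes). With the dye term 2 of 17 were higher (1.45% of all probes) and 0 of 17 lower (0.83% of all probes), and 7 of 17 passed an unadjusted p under 0.05 (17.2% of all probes).

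The actins form the filament itself. Acta2 encodes smooth muscle alpha-actin, the usual marker of the myofibroblast, and its brightest probe, A_51_P450957, read log2 ratios of -1.51 and -1.25 after H2O2 in wild type cells, -1.21 and -1.43 in mutant cells, and -2.27 and -0.64 for untreated mutant over untreated wild type cells. All 6 values were negative, and 5 of them came from marked spots, of which 1 was saturated. With all spots, the ratio fit gave log2 fold changes of -1.38 (SE 0.34, n = 2 arrays; limma adjusted p = 0.0788) in wild type cells, -1.32 (SE 0.34; limma adjusted p = 0.228) in mutant cells and -1.46 (SE 0.34; limma adjusted p = 0.0246) between the genotypes. The designed fit had no value of this probe in wild type cells or between the genotypes, since both arrays were marked.

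That Acta2 probe was lower in Cy5 than in Cy3 in all 3 comparisons. Untreated mutant RNA, measured in both dyes on different arrays, read a log2 intensity of 13.5 in Cy3 and 12.3 in Cy5 (means of 2 arrays). Treated and untreated mutant cells, both in Cy5, differed by -0.11 in log2 intensity. A model of the 12 channels with a term for dye gave a dye term of -1.18 (log2 Cy5 over Cy3, SE 0.51), which did not pass (limma adjusted p = 0.566). With it the change with H2O2 was -0.19 (SE 0.60; limma adjusted p = 0.976) in wild type cells and -0.14 (SE 0.51; limma adjusted p = 0.940) in mutant cells.

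The Acta2 probe A_52_P210078 was designed to the same transcript and carried no outlier marks. It read -0.67 and -0.74 in wild type cells after H2O2 and -1.30 and -1.23 in mutant cells, where the fit gave -1.27 (SE 0.20; limma adjusted p = 0.199). Its dye term was 0.09, and with that term the change in mutant cells was -1.36 (SE 0.38; limma adjusted p = 0.275). Between the untreated genotypes it read 0.45 and -0.24, on both sides of 0. The dim probe A_52_P239556, lay between -0.42 and -0.02 on all 6 arrays.

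Actg2 encodes enteric smooth muscle gamma-actin, a near copy of Acta2, and the genes may share signal on these probes. Its probe read -1.30 and -1.08 in wild type cells after H2O2, -1.10 and -1.20 in mutant cells, and -2.24 and -0.27 for untreated mutant over wild type cells. The dye term was -0.98, and with it the log2 fold changes in the 3 comparisons were -0.25, -0.17 and -0.23, each smaller than its SE (0.71, 0.60 and 0.56).

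Of the myosin subunits, Myl9 encodes the regulatory light chain that myosin light chain kinase phosphorylates to start contraction. After H2O2 its log2 ratios were -0.56 and -0.01 in wild type cells and -2.11 and -2.26 in mutant cells, so that both mutant arrays lay below both wild type arrays. On the untreated arrays it read 1.82 and 2.20, higher in mutant cells. The ratio fit called the genotype difference at 2.01 (SE 0.20, 4.03-fold; limma adjusted p = 0.00443), and the dye model called it at 1.71 (SE 0.31; limma adjusted p = 0.0136). The change with H2O2 in mutant cells was -2.11 with the marked spot left out (1 array, SE 0.28; limma adjusted p = 0.199) and -2.51 with the dye term (SE 0.34; limma adjusted p = 0.0627), short of the threshold in both. Without replicate 3 of the untreated arrays it passed (-2.18 with all spots; limma adjusted p = 0.00345). The genotype difference in the dye model did not pass without replicate 1 or 2 of the mutant treatment arrays (limma adjusted p = 0.285 and 0.142). With the dyes of the untreated arrays as in the labels, the dye model gave a change with H2O2 of -4.88 in mutant cells (limma adjusted p = 0.0626), a called -3.14 in wild type cells (limma adjusted p = 0.0261) and a genotype difference of 1.00 that did not pass.

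The level of Myl9 in each channel gives the same order, but it is computed from the same normalized ratios and is no separate evidence. Untreated wild type cells read a log2 intensity of 7.81 and 7.35 in Cy3 of the treatment arrays and 8.01 and 7.55 in Cy3 of the untreated arrays. Untreated mutant cells read 9.66 and 9.12 in Cy3 and 9.83 and 9.75 in Cy5, above all 4 wild type values. Treated mutant cells read 7.55 and 6.86 and treated wild type cells 7.25 and 7.34, so that after H2O2 the genotypes overlapped.

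For Myl9 the difference between the genotypes in the response to H2O2 was called in the dye model with all spots. That model was chosen after seeing the data, and the designed fit did not call the difference. With the dye term the mutant response minus the wild type response was -1.87 (SE 0.25; limma adjusted p = 0.0100), and 1 of 17 member probes was called (0.434% of all probes). Without it the difference was -1.90 with all spots (SE 0.28; limma adjusted p = 0.205) and -1.55 with marked spots left out (limma adjusted p = 0.706). There 0 of 12 members and 0 of all probes were called by limma (0% of all probes), while 2 of the 12 members passed an unadjusted p under 0.05 (5.95% of all probes). With all spots, 2 of 17 members passed an unadjusted p under 0.05 (6.52% of all probes). In the dye model the adjusted p was between 0.0684 and 0.255 when an array of treated cells was left out, and the difference then lay between -2.10 and -1.63. With the dyes of the untreated arrays as in the labels it was -1.74 (limma adjusted p = 0.154). Myl9 spots were marked on replicate 2 of both treatment comparisons.

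The promoter windows of 6 of the 9 genes, from 250 bases before to 50 bases after the annotated start, were in the RefSeq table of build GRCm38.p6. Those of Myl9 and Tpm2 are shown because these genes had the probes called higher in untreated mutant cells, and that of Acta2 because it defines the myofibroblast. Capitals mark a CArG box in Myl9 and an opposite-strand match of CATTCC, a motif of muscle promoters, in Acta2, and Tpm2 has none. The windows lie at chr2:156775214-156775513 on the + strand, chr4:43523505-43523804 on the - strand and chr19:34255324-34255623 on the - strand.
Myl9: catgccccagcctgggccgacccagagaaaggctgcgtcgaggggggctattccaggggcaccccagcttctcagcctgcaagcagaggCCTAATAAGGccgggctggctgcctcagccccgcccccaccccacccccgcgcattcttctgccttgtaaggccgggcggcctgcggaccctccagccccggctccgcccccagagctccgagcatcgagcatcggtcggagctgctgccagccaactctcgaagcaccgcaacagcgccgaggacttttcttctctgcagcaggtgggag
Tpm2: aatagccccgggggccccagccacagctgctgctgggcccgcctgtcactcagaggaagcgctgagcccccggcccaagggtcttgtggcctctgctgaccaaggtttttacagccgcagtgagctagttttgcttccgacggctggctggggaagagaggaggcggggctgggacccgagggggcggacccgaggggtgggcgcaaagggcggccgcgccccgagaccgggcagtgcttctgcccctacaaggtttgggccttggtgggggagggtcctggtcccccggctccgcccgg
Acta2: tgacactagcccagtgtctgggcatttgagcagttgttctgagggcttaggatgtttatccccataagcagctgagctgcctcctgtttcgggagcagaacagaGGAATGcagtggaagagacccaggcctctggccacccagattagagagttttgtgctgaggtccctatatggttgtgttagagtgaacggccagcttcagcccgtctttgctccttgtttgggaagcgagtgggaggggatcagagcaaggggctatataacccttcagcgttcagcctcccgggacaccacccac
Both strands were searched, and no motif overlapped another. The CArG box was searched only in its strict form of CC, 6 bases of A or T, then GG. Sequences 1 base off, such as ccctatatgg and ccttgtttgg in the Acta2 window, were not marked or counted. The strict form stood in 1 of the 7 windows of the members (Cald1 had 2 windows) and in 1.63% of all 32851 windows. CATTCC stood in 3 of the 7 and in 14.7% of all windows, and TATAAA stood in 1 of the 7 and in 13.6% of all windows. The CArG box of Myl9 began 161 bases before the start site, at base 90 of the window.

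Myh11, the smooth muscle myosin heavy chain and a late marker of smooth muscle, showed no change that held across arrays. It read 0.00 and -0.17 in wild type cells after H2O2, -0.54 and 0.33 in mutant cells and -0.78 and 0.48 between the untreated genotypes. The arrays lay on both sides of 0 in mutant cells and between the genotypes.

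**Figure D2:**
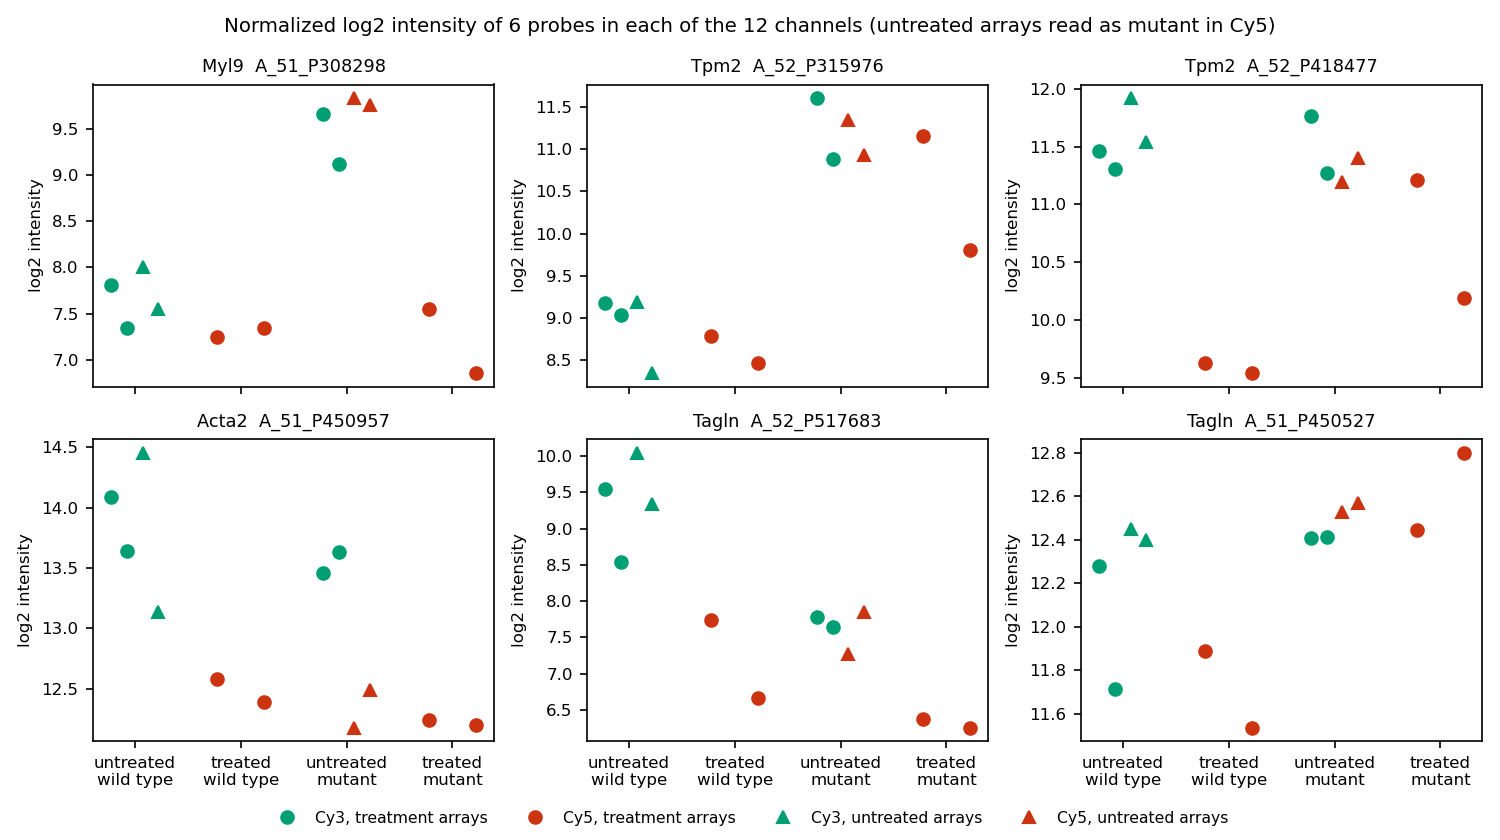
Normalized log2 intensity (y axis) of 6 probes in each of the 12 channels, grouped by genotype and treatment (x axis), with green for Cy3, red for Cy5, circles for the 4 treatment arrays and triangles for the 2 untreated arrays. Untreated mutant cells lay above all wild type cells for Myl9 and for Tpm2 A_52_P315976. Acta2 A_51_P450957 was lower in every Cy5 channel than in any Cy3 channel.

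The tropomyosins lie along the actin filament. Tpm2, beta-tropomyosin, was measured by a pair of probes designed to the same transcript, and these gave different results. The probe A_52_P315976 read -0.39 and -0.57 in wild type cells after H2O2, -0.44 and -1.08 in mutant cells, and 2.16 and 2.58 for untreated mutant over untreated wild type cells. The genotype difference was called at 2.16 with the marked spot left out (1 array, SE 0.26, 4.46-fold; limma adjusted p = 0.00706) and at 2.31 with the dye term (SE 0.39; limma adjusted p = 0.00828), although not without replicate 1 of the mutant treatment arrays (limma adjusted p = 0.135). In Cy3 of the treatment arrays it read 11.6 and 10.9 in mutant and 9.18 and 9.03 in wild type cells.

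The brighter Tpm2 probe, A_52_P418477, read -1.84 and -1.77 in wild type cells after H2O2, -0.56 and -1.08 in mutant cells, and -0.73 and -0.14 between the untreated genotypes. In wild type cells the change was called with all spots at -1.80 (SE 0.21, 3.49-fold lower; limma adjusted p = 0.0287), and it did not pass with the marked spot left out (limma adjusted p = 0.0576) or with the dye term (-1.49, SE 0.43; limma adjusted p = 0.459). Its mutant response minus its wild type response was 0.98 with all spots (limma adjusted p = 0.606). On the untreated arrays the probes of Tpm2 differed by 2.88 and 2.73 log2 units, in wild type cells after H2O2 by 1.45 and 1.20, and in mutant cells by 0.12 and 0.00. Which transcripts each probe reads is not given in the sources used here.

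Tpm1, alpha-tropomyosin, read lower in untreated mutant cells on all 3 of its probes and both arrays. The values were -1.64 and -1.19 for A_52_P44949, -3.15 and -1.78 for A_52_P532910 and -0.94 and -0.71 for A_51_P325173. A_51_P325173 was dim, well above background in Cy5 on 3 of the 6 arrays, so its value is less certain. The design names it Tpm1 but describes its cDNA as a tropomyosin 2 product. With marked spots left out the fit called A_52_P44949 at -1.19 (1 array, SE 0.29; limma adjusted p = 0.0460) and A_51_P325173 at -0.83 (SE 0.20; limma adjusted p = 0.0274), and A_52_P532910 had no value. In the dye model the differences were -1.17, -1.26 and -0.72, with limma adjusted p of 0.147, 0.196 and 0.260. After H2O2, A_52_P532910 read -1.68 and -1.06 in wild type and -1.06 and -1.62 in mutant cells, with a dye term of -1.17 and changes of -0.24 and -0.17 beside it. A_52_P44949 read -0.45 and -0.83 in wild type cells and 0.03 and -0.45 in mutant cells.

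Cald1 encodes caldesmon, which restrains myosin on the filament, and its probes also differed. A_51_P357573 read -0.15 and -0.18 in wild type cells after H2O2, -0.26 and 0.16 in mutant cells, and -0.68 and -0.41 between the untreated genotypes. A_52_P599578 read -1.71 and -1.12, -1.63 and -0.9999, and -1.64 and -0.19 in the same order. Its dye term was -0.92, and with it the log2 fold changes were -0.45, -0.40 and -0.05, each smaller than its SE (0.64, 0.54 and 0.50). For A_51_P357573 the dye term turned all 3 directions, to 0.47, 0.66 and 0.23. Neither probe was called in any comparison.

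Cnn1, calponin, a marker of differentiated smooth muscle, stayed within 0.14 of 0 on the 4 treatment arrays, at 0.00, 0.14, -0.04 and -0.05. On the untreated arrays it read -0.53 and -0.40 (-0.47, SE 0.16; limma adjusted p = 0.0960), and with the dye term the difference was -1.15 (SE 0.45; limma adjusted p = 0.220). In Cy3 of the treatment arrays its log2 intensity was 6.80 and 8.54 in wild type cells, and 6.14 and 6.20 in mutant cells, with replicate 2 of the wild type arrays alone above 8 in both dyes.

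Tagln encodes transgelin, an actin-binding protein that bundles filaments. Its probe A_52_P517683, with no marked spot, was low on every array: -1.80 and -1.88 in wild type cells after H2O2, -1.40 and -1.39 in mutant cells, and -2.77 and -1.48 for untreated mutant over untreated wild type cells. It was called in wild type cells at -1.84 (SE 0.28, 3.59-fold lower; limma adjusted p = 0.0476) and between the genotypes at -2.13 (SE 0.28, 4.36-fold lower; limma adjusted p = 0.00442). Its dye term was -0.39, and with it the changes were -1.53, -1.003 and -1.65, with limma adjusted p of 0.579, 0.484 and 0.0913. In Cy3 of the treatment arrays, untreated wild type cells read 9.54 and 8.55 and untreated mutant cells 7.78 and 7.64.

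The brighter Tagln probe, A_51_P450527, designed to the same transcript, did not follow. It read -0.39 and -0.18 in wild type cells after H2O2, 0.04 and 0.38 in mutant cells, and 0.08 and 0.17 between the untreated genotypes. On each array it lay above the other probe, by 1.42 to 2.85 log2 units.

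**Figure D3:**
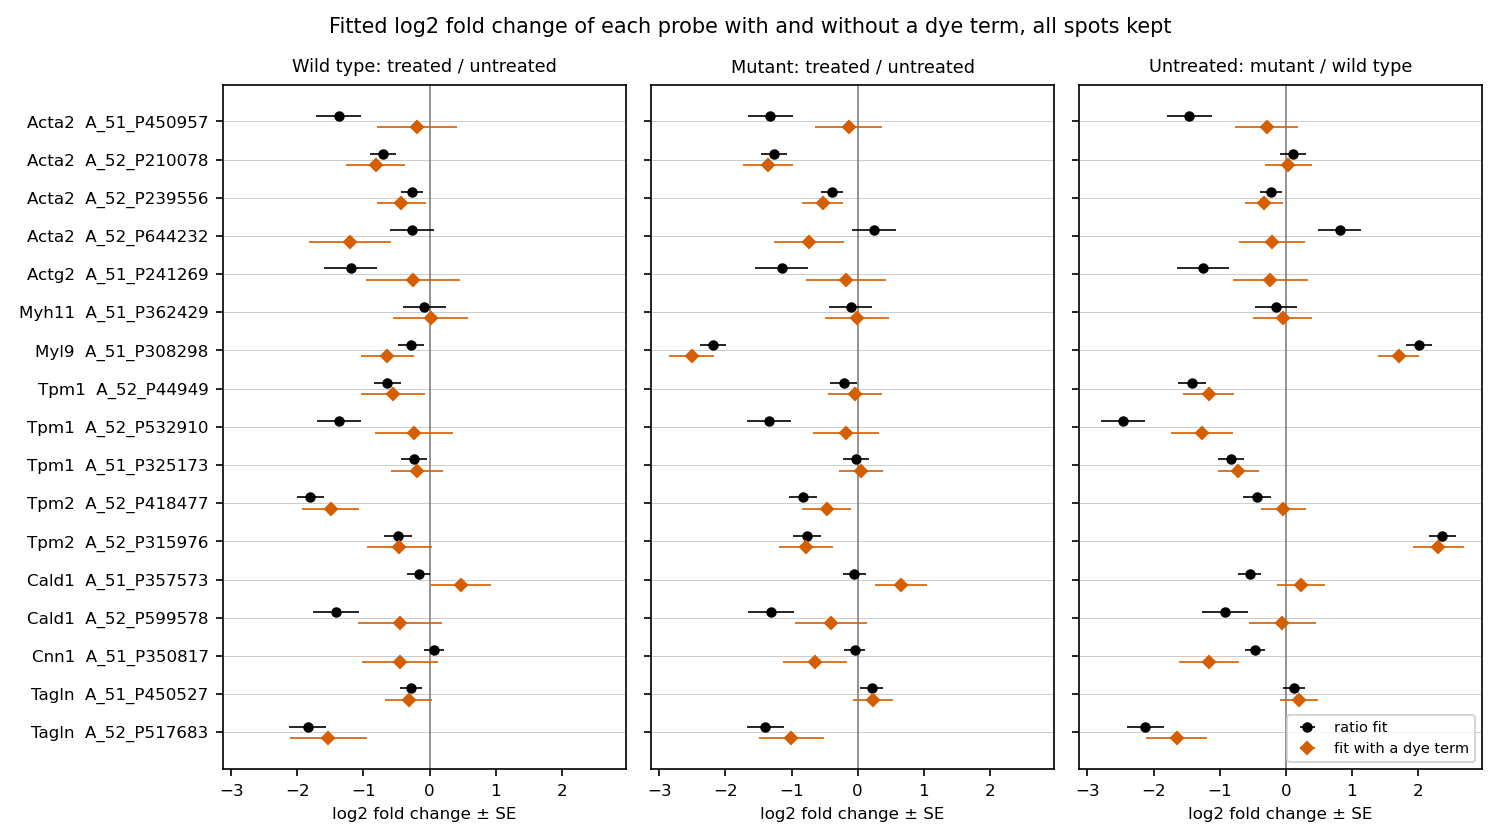
Log2 fold change with its SE (x axis) of the 17 probes (rows) in the 3 comparisons, from the ratio fit (black circles) and from the model with a dye term (orange diamonds), all spots kept. Acta2 A_51_P450957, Actg2, Tpm1 A_52_P532910 and Cald1 A_52_P599578 lie nearer to 0 with the dye term in all 3 comparisons, and Myl9 stays near -2 in mutant cells in both fits.

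Dye terms at or below -0.9, a limit chosen after the values were seen, were found for 4 of the 17 probes and for 5.37% of all probes. They belonged to Acta2 A_51_P450957, Actg2, Tpm1 A_52_P532910 and Cald1 A_52_P599578. None of these 4 terms passed (limma adjusted p = 0.566, 0.641, 0.566 and 0.632). Over mean log2 intensities above 12, 5.73% of probes had such a term. The model draws the dye term from the untreated arrays, so it changes if the labels' reading of these arrays is taken.

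**Figure D4:**
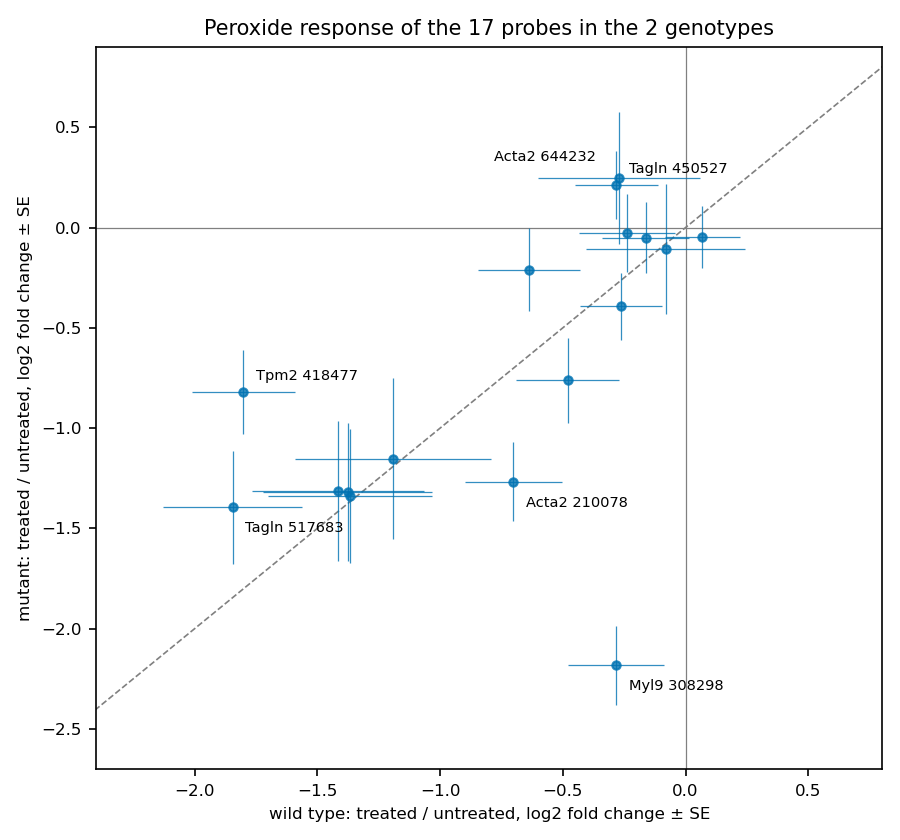
Log2 fold change with H2O2 in wild type cells (x axis) and in mutant cells (y axis) of the 17 probes, ratio fit with all spots, with bars for the SE and a dashed line where both are equal. Myl9 lies farthest below the line, at -0.28 and -2.18, and Tpm2 A_52_P418477 farthest above it, at -1.80 and -0.82.

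The pathway that drives these genes was read from lists with 1 probe a gene. Srf itself read -0.65 and -0.85 in wild type cells after H2O2 and -0.35 and -0.45 in mutant cells, and was lower in untreated mutant cells by the ratio fit (-1.07 with the marked spot left out; limma adjusted p = 0.0272) but not with the dye term (-0.33, limma adjusted p = 0.638). Of the SRF and myocardin-related factors, 0 of 9 genes with a value were called after H2O2 in wild type cells (0.836% of all probes) and 0 of 9 in mutant cells (0% of all probes). With all spots and an unadjusted p under 0.05, 3 of 10 were lower in wild type cells (10.6% of all probes) and 0 higher. In mutant cells 2 of 10 were lower (6.8% of all probes) and 1 higher (limma). In either direction 8936 and 5494 of all 41174 probes passed in wild type and mutant cells. In untreated mutant cells 3 of 10 were higher (10.2% of all probes) and 1 of 10 lower (9.76% of all probes). Csrp2, a LIM protein of smooth muscle, was higher at 1.52 and 1.62. With the dye term 0 of the list were called (1.45% of all probes higher and 0.83% lower), and Csrp2 was at 1.48 (limma adjusted p = 0.0635). Tgfb1 was not called in any comparison, at 0.56 and 0.40 on the untreated arrays.

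Among 12 TGF-beta ligands and activators, 0 of 11 with a value in wild type cells (0.836% of all probes) and 0 of 12 in mutant cells (0% of all probes) were called after H2O2. With all spots 2 were called lower in wild type cells (1.22% of all probes). At an unadjusted p under 0.05, 4 were lower in each genotype (10.6% of all probes in wild type and 6.8% in mutant cells) and 1 and 3 higher (limma). Between the genotypes 2 of the 12 were called higher (10.2% of all probes) and 4 lower (9.76% of all probes) in untreated mutant cells. Thbs1, which activates latent TGF-beta, was lower at -4.26 and -3.83, and the latent TGF-beta binding protein Ltbp1 was lower at -3.43 and -2.71. Tgfb2 was higher at 1.10 and 1.42. In the dye model 3 of the 12 were called lower (0.83% of all probes) and 1 higher (1.45% of all probes). Thbs1, Ltbp1 and Ltbp2 remained lower at log2 differences of -4.01, -2.60 and -2.18, and Fstl1 remained higher at 1.49. Of 17 receptors, Smads and regulators of the pathway, 0 were higher (10.2% of all probes) and 4 lower (9.76% of all probes) in untreated mutant cells. With the dye term 0 of these 17 were called (1.45% of all probes higher and 0.83% lower).

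Of 27 target genes of TGF-beta and SRF on the array, 4 were higher (10.2% of all probes) and 4 lower (9.76% of all probes) in untreated mutant cells. After H2O2 0 of 23 with a value in wild type (0.836% of all probes) and 0 of 25 in mutant cells (0% of all probes) were called. With all spots 2 were called lower in wild type cells (1.22% of all probes). At an unadjusted p under 0.05, 7 were lower (10.6% of all probes) and 2 higher in wild type cells (limma). In mutant cells 10 were lower (6.8% of all probes) and 1 higher at that level (limma). Ctgf, the connective tissue growth factor, read 0.36 and 0.09 in wild type cells after H2O2, -1.30 and -1.96 in mutant cells, and -3.28 and -2.82 for untreated mutant over wild type cells. It was lower in untreated mutant cells with both fits, while Myl9 was higher in the same cells. Its mutant response minus its wild type response was -1.80 with the dye term (limma adjusted p = 0.0246) and did not pass in the ratio fit with all spots (-1.85; limma adjusted p = 0.267). Over the list the median with all spots was -0.30 in wild type, -0.34 in mutant cells and 0.05 between the genotypes.

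Of 21 genes of the contraction machinery, 4 were higher (10.2% of all probes) and 2 lower (9.76% of all probes) in untreated mutant cells. Mylk, the kinase of Myl9, read 0.74 and 1.33 there and was called at 1.04 (SE 0.23; limma adjusted p = 0.0280), with 0.80 under the dye term (limma adjusted p = 0.463). After H2O2 Mylk read 0.06 and -0.58 in wild type cells and -0.60 and -0.04 in mutant cells.

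A list of non-muscle and striated paralogs of the members had 12 genes on the array, among them Lmod1, a smooth muscle marker rather than such a paralog. The median of the 12 after H2O2 was -0.16 in wild type and -0.40 in mutant cells. In each genotype 11 of 12 read below 0, against 49.9% of all probes in wild type and 48.8% in mutant cells. Acta1, skeletal alpha-actin, read -1.09 and -1.14 in wild type cells and -2.06 and -2.35 in mutant cells (limma adjusted p = 0.0663 with all spots, dye term -0.04). Actb, cytoplasmic beta-actin, read -0.42, -0.09, -0.43 and -0.51 on the treatment arrays and -0.59 and -0.64 on the untreated arrays, where it was called lower (-0.61; limma adjusted p = 0.0457) but not with the dye term (-0.20; limma adjusted p = 0.745). These actins resemble Acta2 in sequence, and shared signal was not tested.

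Markers of other cell types were set beside these values. The fibroblast markers were well above background in Cy3 on every array for 15 of 15 genes. Of the 14 with a value, 8 were called higher in untreated mutant cells (10.2% of all probes) and 0 lower (9.76% of all probes). With the dye term 3 were higher (1.45% of all probes). After H2O2 the median log2 ratio of the fibroblast markers with all spots was -0.78 in wild type and -0.28 in mutant cells. In wild type cells 2 of 15 were called lower (1.22% of all probes) and 8 were lower at an unadjusted p under 0.05 (10.6% of all probes). In mutant cells 0 were called and 4 were lower at that level (6.8% of all probes). Both are limma fits with all spots. The log2 of their summed intensity in Cy3 of the treatment arrays was 16.0 to 16.3 in wild type and 16.6 to 16.8 in mutant cells. In Cy5 of these arrays the sum was 16.4 and 16.5 in treated wild type cells, above the untreated values. Treated mutant cells read 16.5 and 16.8. The sum in wild type cells thus did not fall with the median. For 15 smooth muscle markers other than the members the Cy3 sum was 10.5 to 11.7 in wild type cells and 10.5 on both arrays of mutant cells. Myocd was well above background in Cy3 on 4 arrays and in Cy5 on 1. The Cy3 sums were 10.6 to 11.1 against 11.5 to 11.6 for pericyte markers, 12.01 to 12.8 against 12.2 for skeletal muscle markers and 13.0 against 12.5 to 12.8 for cardiac muscle markers. Within Cy5, untreated mutant cells read 12.3 and 12.04 and treated mutant cells 11.2 on both arrays for skeletal muscle markers, and 12.7 and 12.9 against 12.05 and 11.8 for cardiac muscle markers. No list had a gene that stayed at background on all 6 arrays in both dyes. The part of these differences in the values of the contractile genes was not tested.

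The pattern of the 9 genes, taken as the mean over their brightest probes, was -0.69 and -0.59 in wild type cells, -0.64 and -0.62 in mutant cells and -0.77 and -0.02 on the untreated arrays. Among 17733 other probes over a mean log2 intensity of 6, those of BG079886, Klf2, Bzw2, Gdap1l and Sost lay nearest to it, at Euclidean distances of 0.168, 0.193, 0.199, 0.223 and 0.256 over the 6 arrays.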

How the data were processed

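The 6 hybridizations to Agilent whole mouse genome arrays were extracted with Feature Extraction 7.5.1 per the file headers. Each array deposited the mean intensity and local background intensity of every spot in both dyes, and a log10 ratio (Cy5/Cy3) that the software had detrended and dye normalized. Log2 ratios of the authors, background subtracted and loess normalized, stand in the series table and correlated with the ratios computed here at r of 0.9995 or more. They were centred near 0 on each array, and 2466 were missing on replicate 4 of the untreated arrays.

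Log2 ratios were computed in R 4.3.3 with limma 3.58.1 (tables read by data.table, version 1.17.8): local background median subtracted, loess within arrays, control spots and spots marked as outliers left out, saturated spots kept, spots of a probe averaged. One fit of all 6 arrays by lmFit and eBayes (3 residual degrees of freedom) held 1 coefficient per comparison. Two-sided p-values were corrected by Benjamini-Hochberg across every probe with a value. A model of the 12 channels with a dye term (lmscFit, after loess and Aquantile) gave the dye-term values. With 2 arrays per comparison, the number of arrays limits the precision. The fits were tested on simulated data.

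Every probe of the 9 genes is reported, and the representative probe is the brightest. From the lists, Ctgf, Srf, Tgfb1, Mylk and Actb are given called or not, with some of the up to 3 genes of largest change per direction, and Acta1, Csrp2 and Fstl1 by that rule or for their place beside a member. Members and lists were chosen with earlier results of these data known. Sequences came from RefSeq tables. Plots used Python 3.11.15, pandas 2.3.3 and matplotlib 3.10.9.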

Additional observations from a re-analysis of the deposited data

Results flagged for a closer look

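The responses of the genotypes to H2O2 differed for Myl9 in the model with a dye term and all spots, which was chosen after seeing the data. The log2 difference was -1.87 (limma adjusted p = 0.0100), and both mutant arrays lay below both wild type arrays. It did not pass in the ratio fit with all spots (-1.90; limma adjusted p = 0.205) or with the dyes of the labels (-1.74; limma adjusted p = 0.154). For the Tagln probe A_51_P450527 both wild type arrays moved down and both mutant arrays up, and the log2 difference of 0.49 did not pass the test (limma adjusted p = 0.792). The Acta2 probe A_52_P644232 did the same, with a log2 difference of 0.52 (limma adjusted p = 0.921), and it was not well above background on any array.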

How the results depend on the processing

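Counts of member probes called are given in the order wild type, mutant, untreated genotypes and difference of responses, against 1, 0, 5 and 0 as reported. They were 2, 0, 7 and 0 with outlier spots kept and also with the authors' series table, 2, 0, 3 and 0 with normexp, 0, 0, 2 and 0 with the log ratio of Feature Extraction and also with the thresholds of the study's methods, 5, 8, 2 and 1 with each comparison on its own arrays, 2, 0, 4 and 0 over a mean log2 intensity of 6, and 5, 9, 9 and 2 at an unadjusted p under 0.05. The dye term gave 0, 0, 0 and 0 with marked spots left out, where most members had no value. Chosen after seeing the data, the dye term with all spots gave 0, 0, 2 and 1, and 2, 0, 0 and 0 with the dyes of the labels. Leaving out 1 array gave 0 to 5, 0 to 8, 3 to 8 and 0 to 1, and the counts of 5, 8 and 1 came without either untreated array. The replicate block gave 0, 0, 3 and 0. The deviations of same-numbered arrays correlated at -0.02 over probes. This 1 value cannot show whether same-numbered cultures were handled together. No fit with slide or scan date as a block was run, since each array was its own slide.

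Of the fold changes and medians under the alternatives, 426 kept direction and side of the threshold or moved by less than the spread, 30 passed it, 14 no longer passed it, 21 moved and 46 turned. Many of the 426 kept their estimate by design, since leaving out an array of another comparison cannot change it in the ratio fit. The 426 also hold values that shrank, such as Acta2 in wild type cells, from -1.38 to -0.19 with the dye term and all spots. The tally is therefore no measure of robustness. The cause of the changes was not tested. With the direction of the labels the untreated comparison became 1.46 for Acta2, 0.27 for Actg2, 0.15 for Myh11, -2.01 for Myl9, 1.19 for Tpm1, 0.43 for Tpm2, 0.55 for Cald1, 0.47 for Cnn1, -0.13 for Tagln and 0.27 for the median. With the dye term under the labels' dyes, values in wild type cells were 0.25 for Acta2, 0.71 for Tpm1 and 1.55 for Cnn1, in mutant cells 0.29 for Acta2, 0.057 for Myh11, 0.99 for Tpm1, 1.36 for Cnn1 and -0.34 for Tagln, between genotypes 0.13 for Actg2, 0.24 for Tpm2 and 0.54 for Cald1, and 0.00035 for the difference of responses of Actg2. With the dye term and all spots, Cald1 read 0.47, 0.66 and 0.23 in the 3 comparisons, and Actg2 0.080 for the difference. With outlier spots kept and with the series table, Actg2 read 0.039 for the difference, Myh11 -0.082 and Cnn1 0.068 in wild type cells. The log ratio of Feature Extraction gave 0.11 for the difference of Actg2 and 0.078 for Cnn1 in wild type cells, and normexp gave -0.021 for Myh11 in wild type cells and 0.010 for the difference of Cnn1. The replicate block gave 0.064 for Cald1 in wild type cells, -0.12 for its difference and -0.030 for the median difference, which was -0.022 over an intensity of 6. Leaving out 1 array in turn, Myh11 read -0.78 to 0.48 between genotypes, Tpm1 -0.45 to 0.035 and Cald1 -0.26 to 0.16 in mutant cells, and the difference of responses was -0.12 to 0.31 for Cald1 and -0.043 to 0.39 for the median.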
